A study of Mus musculus with 6 samples.

Results

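The tumour necrosis factor (TNF) superfamily was examined in c-kit+ mouse bone marrow progenitors that MLL-AF9, a leukemia fusion protein of a histone methyltransferase and AF9, had transformed. Probe sets were taken whose gene symbol in the deposited table begins with Tnfsf or Tnfrsf and a number, which gave 30 of the 25123 named probe sets on the array. They hold 10 ligands (Tnfsf) and 20 receptors (Tnfrsf), each with 1 probe set. Expression arrays with probes spread along each gene (Affymetrix Mouse Gene 1.0 ST) were run on 3 samples labelled pMIG-TGIF1 and 3 labelled pMIG.

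Both groups of cells carry MLL-AF9. The first group received the retroviral vector pMIG-TGIF1, which marks transduced cells with GFP, and the second the empty vector pMIG. GFP-positive cells were sorted 3 days after transduction and kept in medium for 1 day, and each array took 300 ng of total RNA. TGIF1 is a homeobox repressor best known for limiting TGF-beta signalling, and the series title asks about its role in MLL-rearranged leukemia. The labels do not say whether the samples came from separate transductions, so the p-values rest on the spread between these arrays alone, and that spread may be technical.

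The Tgif1 probe set went against the labels. It read 239.1, 239.1 and 258.3 in the arrays labelled pMIG-TGIF1, against 319.6, 376.0 and 408.1 in the pMIG arrays (1.49-fold lower, limma adjusted p = 0.00286). Whether its probes lie in the sequence that the vector carries is not given in the sources used here, so the probe set may check nothing, and every direction below rests on the labels. In all, 24.7% of named probe sets passed the test (limma, Benjamini-Hochberg adjusted p under 0.05), 11.5% of them higher in the arrays labelled pMIG-TGIF1 and 13.2% lower, as shares of all named probe sets. None of the 10 myeloid markers examined was among the dimmest 30% of probe sets, whereas 4 of 8 T cell, 4 of 7 B cell and 6 of 7 NK cell markers were. Of the 10 myeloid markers 1 rose, Ptprc (CD45), at 1.55-fold (limma adjusted p = 0.00136), and 3 fell. Cd33 was 2.13-fold lower (adjusted p = 4.67e-05), Mpo 1.88-fold (0.0168) and Kit 1.32-fold (0.0311). Mpo lost the call without pMIG replicate 1 (adjusted p = 0.0601) or 2 (0.0661), and Kit without pMIG-TGIF1 replicate 1 (0.104) or pMIG replicate 1 (0.121) or 2 (0.108).

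TNF superfamily ligands are trimeric proteins of the cell surface, some of which are shed as soluble cytokines. Their receptors carry cysteine-rich repeats outside the cell. Inside it most recruit TRAF adaptors that activate NF-kB and MAP kinases, while those with a death domain can also engage caspase-8, and decoy receptors bind ligand without passing on a signal. In blood-forming tissue the family is best known for lymphocyte costimulation, B cell survival, osteoclast formation from myeloid precursors and the control of cell death.

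Of the 30 members, 8 rose and 2 fell in the arrays labelled pMIG-TGIF1, and 20 did not pass. The called share was 33.3%, against 24.7% over all named probe sets. With array median centring 2 ligands and 4 receptors were called higher and 1 ligand and 3 receptors lower. At the deposited scale 3 members rose at least 2-fold, a size reached by 2.65% of named probe sets. No member fell as much as 2-fold. The groups of arrays did not overlap for 15 of the 30 members, against 38.4% of all named probe sets.

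Ligands and receptors were called at shares that were not tested against each other. Of 10 ligands 3 rose and 1 fell (40% called), and of 20 receptors 5 rose and 1 fell (30% called). Of all named probe sets 24.7% were called, 11.5% higher and 13.2% lower. The median log2 fold change was 0.20 over the ligands and 0.05 over the receptors, beside 0.01 over all named probe sets, and the means were 0.20 and 0.21. Set against the pMIG mean of each probe set on the log2 scale, the ligands averaged 0.19, 0.18 and 0.23 in the arrays labelled pMIG-TGIF1, against 0.04, -0.08 and 0.03 in the pMIG arrays. The receptors averaged 0.16, 0.15 and 0.31 in the arrays labelled pMIG-TGIF1, against 0.03, -0.03 and 0.00 in the pMIG arrays. Centring each array on its median moved the median of all named probe sets to -0.097, and with it the median of the receptors to -0.062 and that of the ligands to 0.093.

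**Figure D1:**
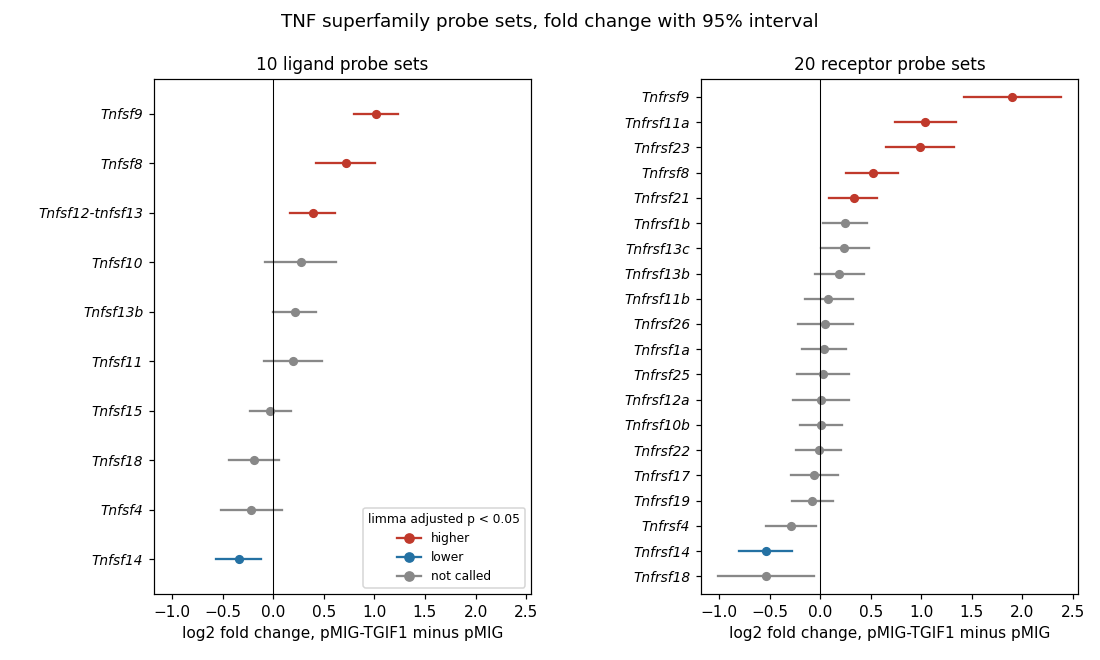
Log2 fold change (arrays labelled pMIG-TGIF1 minus pMIG arrays, x axis) of the 10 ligand probe sets (left) and the 20 receptor probe sets (right), with 95% confidence intervals from the limma fit on 3 arrays a group. Tnfrsf9 stands farthest to the right at 1.90, and the lowest values are those of Tnfrsf18 and Tnfrsf14 at -0.54, of which the test passed Tnfrsf14.

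Of the ligand and receptor pairs, the steepest rise was that of CD137 and its ligand. Tnfrsf9 encodes CD137, a costimulatory receptor best known from activated T cells. It read 149.5, 128.7 and 244.4 in the arrays labelled pMIG-TGIF1, against 52.2, 47.4 and 36.6 in the pMIG arrays. The lowest value of the first group was far above the highest of the second, and the third array labelled pMIG-TGIF1 stood above the other 2. The limma array weights gave that array 0.56, the lowest of the 6, with 0.98 to 1.52 for the others. Without it the log2 fold change of Tnfrsf9 was 1.63, against 1.90 with all 6 arrays. With all 6 the rise was 3.73-fold (95% CI 2.67 to 5.20, limma adjusted p = 0.000124). Tnfsf9, the ligand of CD137, read 80.6, 92.0 and 82.1 in the arrays labelled pMIG-TGIF1, against 45.2, 39.6 and 41.2 in the pMIG arrays. The groups lay far apart with little spread within either, and the rise was 2.02-fold (95% CI 1.74 to 2.35, limma adjusted p = 4.78e-05). Both calls held under every alternative in which the probe set was tested, and Tnfsf9 was not tested once the dimmest 50% were left out.

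CD30 and its ligand, another pair known from activated lymphocytes, rose by less. Tnfsf8, the ligand, read 46.6, 48.2 and 56.1 in the arrays labelled pMIG-TGIF1, against 37.2, 26.5 and 29.0 in the pMIG arrays. It was 1.64-fold higher (95% CI 1.33 to 2.02, limma adjusted p = 0.00286). Tnfrsf8, which encodes CD30, read 80.3, 102.4 and 83.5 in the arrays labelled pMIG-TGIF1, against 66.7, 57.5 and 61.2 in the pMIG arrays, a 1.43-fold rise (95% CI 1.20 to 1.71, limma adjusted p = 0.00729). For both genes every value of the first group exceeded every pMIG value. Neither passed in the ordinary linear model without moderation (adjusted p = 0.0726 for Tnfsf8 and 0.0764 for Tnfrsf8). Both were too dim to be tested once the dimmest 50% were left out.

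The promoters of these receptors are shown because both genes rose together with their ligands and because each holds at least 1 match to the NF-kB binding consensus and 1 to the AP-1 core TGANTCA. The windows are the 250 bases before a RefSeq gene start in GRCm38.p6, printed 5′ to 3′ on the gene's strand. Capitals mark matches, on either strand, to the kB consensus, to TGANTCA or to CTGTCA, a core known to be bound by TGIF proteins, and no match to one motif overlapped a match to another in the windows printed.
Tnfrsf9, second of 2 starts (chr4:150927749-150927998, plus strand): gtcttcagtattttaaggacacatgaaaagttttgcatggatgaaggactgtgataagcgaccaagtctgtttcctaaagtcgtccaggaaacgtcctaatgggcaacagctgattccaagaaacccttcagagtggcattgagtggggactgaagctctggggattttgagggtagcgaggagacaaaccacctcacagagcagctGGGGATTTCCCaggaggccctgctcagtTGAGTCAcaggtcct
Tnfrsf8 (chr4:145315165-145315414, minus strand): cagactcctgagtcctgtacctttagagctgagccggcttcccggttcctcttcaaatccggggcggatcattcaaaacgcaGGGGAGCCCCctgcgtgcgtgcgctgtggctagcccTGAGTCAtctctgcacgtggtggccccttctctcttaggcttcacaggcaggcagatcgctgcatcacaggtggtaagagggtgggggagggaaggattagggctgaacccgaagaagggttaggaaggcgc
In the Tnfrsf9 window the capitals of the kB consensus are 2 overlapping matches. The window of the other Tnfrsf9 start held none of these motifs. Of the 32851 RefSeq windows of this length, 3.90% held the kB consensus, 6.75% TGANTCA and 15.9% CTGTCA. Windows were given for 24 of the 30 members, 9 of them called. Tnfsf9, also called, had no window. The kB consensus stood in 2 of the 24 members, Tnfrsf9 and Tnfrsf8, TGANTCA in 4 and CTGTCA in 5. Some members have more than 1 window. Counted by window, as for the RefSeq shares, these were 2, 4 and 5 of 28. A match describes the letters only, and binding was not measured.

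LIGHT and its receptor HVEM were the pair that fell. Tnfrsf14, which encodes HVEM, read 248.3, 295.5 and 335.9 in the arrays labelled pMIG-TGIF1, against 434.0, 408.8 and 425.6 in the pMIG arrays. The pMIG arrays lay close together and all above the first group, whose replicate 3 came nearest to them. The fall was 1.45-fold (95% CI 1.21 to 1.74, limma adjusted p = 0.00629), and the call was lost without moderation (adjusted p = 0.0748). Tnfsf14, which encodes LIGHT, read 161.4, 153.3 and 137.0 in the arrays labelled pMIG-TGIF1, against 195.8, 177.6 and 199.6 in the pMIG arrays, a 1.27-fold fall (95% CI 1.09 to 1.48, limma adjusted p = 0.0292). That call rested on single arrays. It was lost without pMIG-TGIF1 replicate 2 (adjusted p = 0.0545) or 3 (0.0844), and without pMIG replicate 1 (0.0934) or 3 (0.11), at log2 fold changes of -0.28 to -0.36. Ltbr, the lymphotoxin beta receptor and the other receptor of LIGHT, was 1.22-fold higher and did not pass (limma adjusted p = 0.12), although it passed without pMIG-TGIF1 replicate 3 (adjusted p = 0.0465).

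The windows of this pair are set beside the first 2 because Tnfsf14 holds CTGTCA, read here on the opposite strand as TGACAG. Tnfsf14 was the only one of the 9 called members with a window to hold it, and Tnfsf9 had no window.
Tnfsf14 (chr17:57194182-57194431, minus strand): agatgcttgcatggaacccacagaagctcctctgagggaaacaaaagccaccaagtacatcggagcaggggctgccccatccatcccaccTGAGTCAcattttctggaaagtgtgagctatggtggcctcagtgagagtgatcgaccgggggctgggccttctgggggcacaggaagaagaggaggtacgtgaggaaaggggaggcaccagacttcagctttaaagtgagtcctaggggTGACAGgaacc
Tnfrsf14 (chr4:154928078-154928327, minus strand): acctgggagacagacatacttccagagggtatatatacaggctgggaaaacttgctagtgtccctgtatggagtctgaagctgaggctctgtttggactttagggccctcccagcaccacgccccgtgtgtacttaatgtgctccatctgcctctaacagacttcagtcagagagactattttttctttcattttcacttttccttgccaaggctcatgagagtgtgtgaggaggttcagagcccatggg
The Tnfsf14 window also holds TGANTCA, and that of Tnfrsf14 holds none of the motifs searched.

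**Figure D2:**
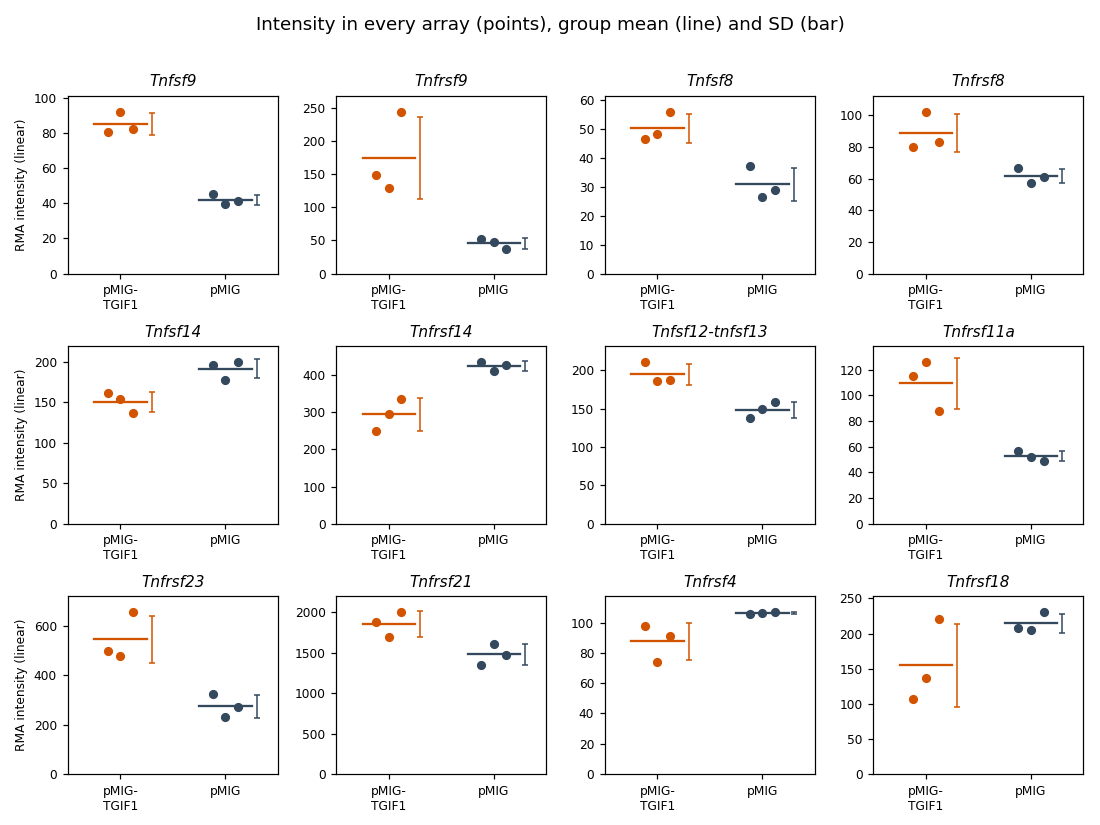
RMA intensity on a linear scale (y axis, from 0) in each array labelled pMIG-TGIF1 (orange) and each pMIG array (dark), 3 a group, for the 10 called members and for Tnfrsf4 and Tnfrsf18, with the group mean as a line and the SD as a bar. The groups do not overlap except for Tnfrsf18, where 1 array labelled pMIG-TGIF1 reads 220.6 among pMIG arrays at 204.5 to 230.4.

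The last of the ligands that rose gave a shared signal. The table names its probe set for Tnfsf12-tnfsf13, the joint transcript of Tnfsf12 (TWEAK) and Tnfsf13 (APRIL, a B cell and plasma cell survival factor), and no other probe set carries either symbol, so the 2 ligands cannot be told apart. It read 210.9, 186.2 and 187.6 in the arrays labelled pMIG-TGIF1, against 138.4, 149.1 and 159.3 in the pMIG arrays. The 1.31-fold rise (95% CI 1.12 to 1.52, limma adjusted p = 0.015) lost its call with arrays centred on their median (adjusted p = 0.066) and without moderation (0.0594). The call was also lost without pMIG-TGIF1 replicate 1 (adjusted p = 0.0548) or pMIG replicate 1 (0.0662). Tnfrsf12a, the TWEAK receptor Fn14, read 152.7, 145.2 and 115.6 in the arrays labelled pMIG-TGIF1, against 152.1, 124.4 and 132.7 in the pMIG arrays, and the groups overlapped.

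RANK rose without its ligand passing the test. Tnfrsf11a encodes RANK, the receptor through which RANKL drives myeloid precursors to become osteoclasts. It read 114.8, 126.1 and 87.7 in the arrays labelled pMIG-TGIF1, against 56.8, 52.1 and 49.0 in the pMIG arrays. The groups were clearly apart, at 2.06-fold (95% CI 1.67 to 2.54, limma adjusted p = 0.000273), and the call was kept without moderation. Tnfrsf11a was not tested once the dimmest 50% were left out. Tnfsf11, which encodes RANKL, read 182.3, 142.3 and 175.2 in the arrays labelled pMIG-TGIF1, against 167.4, 133.1 and 136.0 in the pMIG arrays (log2 0.19 ± 0.13 SE, limma adjusted p = 0.336). The soluble decoy Tnfrsf11b, osteoprotegerin, had a log2 fold change of 0.08 ± 0.11 (limma adjusted p = 0.659) and was among the dimmest 30% of probe sets.

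Among receptors of the death ligand TRAIL, a decoy rose and the signalling receptor did not pass. Tnfrsf23, a TRAIL decoy receptor of the mouse, read 498.9, 479.1 and 654.5 in the arrays labelled pMIG-TGIF1, against 323.3, 230.0 and 270.8 in the pMIG arrays. The rise was 1.98-fold (95% CI 1.57 to 2.50, limma adjusted p = 0.000804), and it narrowly missed without moderation (adjusted p = 0.0546). Tnfrsf22, another TRAIL decoy, read 197.3, 170.5 and 205.9 in the arrays labelled pMIG-TGIF1, against 197.4, 198.2 and 181.8 in the pMIG arrays. Tnfrsf10b, the death receptor for TRAIL, read 144.9, 147.2 and 145.0 in the arrays labelled pMIG-TGIF1, against 131.1, 154.1 and 150.1 in the pMIG arrays, and its log2 fold change had a 95% interval of -0.20 to 0.22. Both groups of arrays overlapped for these 2 genes. TRAIL itself, Tnfsf10, was 1.20-fold higher with overlapping groups (limma adjusted p = 0.276).

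Tnfrsf21, which encodes the death receptor DR6, was the last member called. It read 1879.6, 1689.9 and 2001.5 in the arrays labelled pMIG-TGIF1, against 1351.7, 1612.7 and 1471.9 in the pMIG arrays, 1.26-fold higher (95% CI 1.07 to 1.48, limma adjusted p = 0.0452). The call lay at the threshold. It was lost with array median centring (adjusted p = 0.156), without moderation (0.124), over all probe sets (0.0512) and with array weights (0.05), and without pMIG-TGIF1 replicate 1 (0.103) or 3 (0.121) or pMIG replicate 1 (0.163) or 3 (0.118).

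The receptors of TNF itself did not pass. Tnfrsf1a, the death domain receptor for TNF that most cells carry, read 969.6, 939.1 and 1086.2 in the arrays labelled pMIG-TGIF1, against 989.4, 896.9 and 1025.1 in the pMIG arrays, with a 95% interval of -0.18 to 0.26 on the log2 scale. Tnfrsf1b, the TNF receptor found mainly on blood and endothelial cells, read 1695.0, 1709.6 and 1843.6 in the arrays labelled pMIG-TGIF1, against 1603.2, 1402.4 and 1424.1 in the pMIG arrays. Its groups did not overlap, and the difference of 1.19-fold missed the threshold (limma adjusted p = 0.0927).

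GITR and OX40, costimulatory receptors whose genes lie side by side, were lower without passing. Tnfrsf18, which encodes GITR, read 106.5, 136.5 and 220.6 in the arrays labelled pMIG-TGIF1, against 208.2, 204.5 and 230.4 in the pMIG arrays. The third array labelled pMIG-TGIF1 lay among the pMIG arrays and the other 2 well below them. Without it the log2 fold change was -0.83 and passed (limma adjusted p = 0.00079), while with all 6 arrays it was -0.54 ± 0.21 (adjusted p = 0.099). It also passed with array weights (adjusted p = 0.0216) and with array median centring (0.038). Tnfrsf4, which encodes OX40, read 97.6, 74.2 and 91.0 in the arrays labelled pMIG-TGIF1, against 105.3, 106.2 and 106.8 in the pMIG arrays. All 3 arrays labelled pMIG-TGIF1 lay below the pMIG arrays, 1.22-fold on average (adjusted p = 0.0958). The call was made with renewed quantile normalization (adjusted p = 0.0396), with array median centring (0.0227) and without pMIG-TGIF1 replicate 1 (0.0475). Their ligands Tnfsf18 and Tnfsf4 were among the dimmest 30% of probe sets and differed by -0.19 ± 0.11 and -0.22 ± 0.14 on the log2 scale.

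Of the B cell survival branch, BAFF and the receptors did not pass. The shared probe set of TWEAK and APRIL was called, as given above, and does not show which ligand rose. Tnfsf13b, the ligand BAFF, read 200.6, 209.9 and 233.9 in the arrays labelled pMIG-TGIF1, against 182.8, 187.3 and 186.8 in the pMIG arrays, without overlap (1.15-fold, limma adjusted p = 0.15). Its receptors Tnfrsf13c and Tnfrsf13b were 1.18-fold and 1.14-fold higher, also without overlap (adjusted p = 0.133 and adjusted p = 0.262). Tnfrsf17, the plasma cell receptor BCMA, differed by -0.06 ± 0.10 on the log2 scale and was among the dimmest 30%. The remaining members, Tnfrsf26, Tnfrsf25, Tnfrsf19 and Tnfsf15, lay between -0.08 and 0.05 on the log2 scale with overlapping groups. Tnfrsf25 is DR3, the receptor of the ligand TL1A that Tnfsf15 encodes, and Tnfrsf19 is the receptor TROY.

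The family also holds genes under other symbols, listed apart from the rule. Of 7 such ligands 2 rose and 0 fell, and of 8 such receptors 0 rose and 1 fell (limma, with 1 higher and 1 lower at an unadjusted p under 0.05). The called share was 28.6% of these ligands and 12.5% of these receptors, against 24.7% over all named probe sets. Tnf, the founding cytokine, read 899.2, 854.2 and 1063.5 in the arrays labelled pMIG-TGIF1, against 446.7, 488.4 and 434.3 in the pMIG arrays, a 2.05-fold rise (95% CI 1.74 to 2.42, limma adjusted p = 7.37e-05). Ltb, lymphotoxin beta, rose 1.36-fold (adjusted p = 0.00704). Fas, the death receptor of Fas ligand, read 62.4, 70.1 and 107.2 in the arrays labelled pMIG-TGIF1, against 177.9, 195.2 and 200.0 in the pMIG arrays. The fall of 2.46-fold (95% CI 1.88 to 3.21, limma adjusted p = 0.000343) left no overlap, and the third array labelled pMIG-TGIF1 was the highest of its group. Fasl and Cd40lg, ligands known from T cells, and Cd70 were among the dimmest 30% and did not pass.

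Over 21 textbook pairs of a ligand and a receptor, both partners were called in 3, and in those 3 they moved the same way. They are Tnfsf9 with Tnfrsf9, Tnfsf8 with Tnfrsf8, and Tnfsf14 with Tnfrsf14. In 6 pairs the ligand alone was called, in 2 the receptor alone, and in 10 neither. The pairs counted leave out, among others, Ltb with Ltbr and Tnfsf10 with its decoys Tnfrsf22 and Tnfrsf23. Of these genes Ltb and Tnfrsf23 were called and Ltbr, Tnfsf10 and Tnfrsf22 were not. Of single named probe sets 24.7% were called, and the share for pairs of other genes was not computed. Several pairs share a partner, among them those of the Tnfsf12-tnfsf13 probe set, so the counts are not independent.

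**Figure D3:**
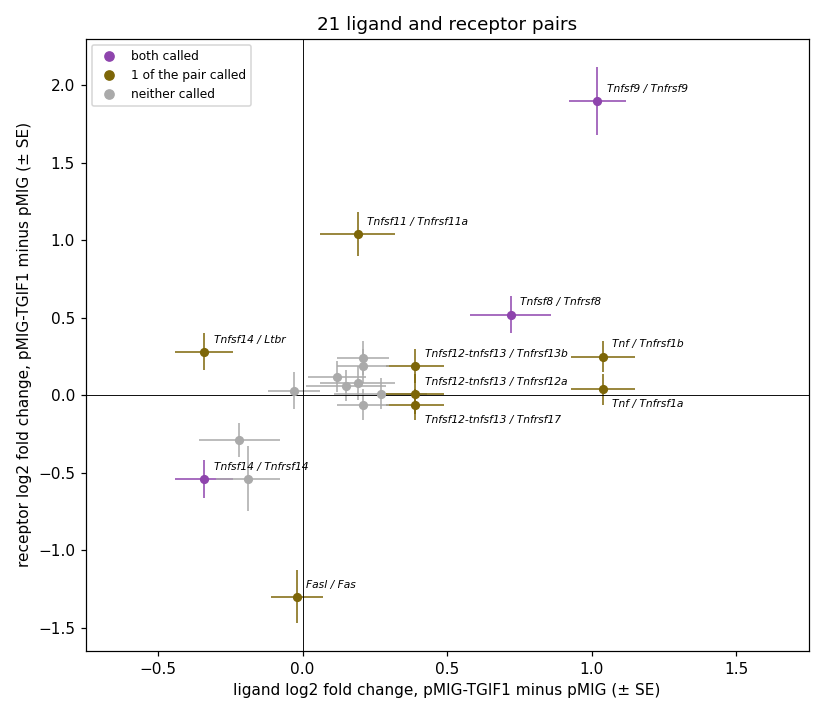
Log2 fold change of the ligand (x axis) against that of its receptor (y axis), arrays labelled pMIG-TGIF1 minus pMIG arrays, for 21 pairs, with SE bars from the limma fit. The 3 pairs with both partners called lie in the upper right (Tnfsf9 with Tnfrsf9, Tnfsf8 with Tnfrsf8) and the lower left (Tnfsf14 with Tnfrsf14), while Tnf stands at 1.04 with its receptors at 0.25 and 0.04.

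Family genes that lie close together on a chromosome were compared with each other. The RefSeq gene order gave 13 such pairs with at most 3 coding genes between, and the difference between the 2 log2 values was compared over the 6 arrays for each. The groups did not overlap for that difference in 8 of the 13. Each of these had an exact two-sided permutation p of 0.1 (0.163 after Benjamini-Hochberg adjustment over the 13). With 20 assignments 0.1 is the smallest p possible, so no pair could pass the threshold and the test decides nothing here. Several genes stand in more than 1 pair, so the counts are not independent. Single named probe sets did not overlap in 38.4% of cases, and the share for other neighbouring genes was not computed. On chromosome 7 the log2 difference of Tnfrsf22 minus Tnfrsf23 was -1.34, -1.49 and -1.67 in the arrays labelled pMIG-TGIF1, against -0.71, -0.22 and -0.58 in the pMIG arrays. Tnfrsf26 minus Tnfrsf22, in the same cluster of related genes, overlapped between the groups (exact permutation p = 0.5). Whether probes of these related genes read each other's transcripts was not tested. On chromosome 17 the difference between groups was 0.86 for Tnfsf9 minus Cd70 and 0.50 for Cd70 minus Tnfsf14, both on the log2 scale. On chromosome 4 the log2 difference of Tnfsf15 minus Tnfsf8 shifted by -0.74, whereas Tnfrsf4 minus Tnfrsf18 overlapped between the groups (exact permutation p = 0.7).

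The 5 pathway lists cover ligand release, receptor adaptors and kinases, ubiquitin editors and brakes, NF-kB subunits and TNF-inducible genes. Their 67 measured genes gave 21 rises and 11 falls. The called share was 47.8%, against 24.7% over all named probe sets (11.5% higher and 13.2% lower). Of these calls, 13 rises and 4 falls belonged to the 20 TNF-inducible genes (85.0% called). In the other lists 36.0% of 25 adaptors and kinases, 16.7% of 12 editors and brakes and 60.0% of 5 subunits were called. Of 5 ligand release genes 1 was called. The lists were chosen with earlier results of these data known. Of 25 receptor adaptors and proximal kinases 5 rose and 4 fell (36.0% called), with a median log2 fold change of 0.00. The falls included Traf2 and Traf3, adaptors that together restrain the alternative NF-kB pathway. Traf2 read 232.5, 255.2 and 209.1 in the arrays labelled pMIG-TGIF1, against 447.2, 382.9 and 416.3 in the pMIG arrays, and fell 1.79-fold (limma adjusted p = 0.000248). Traf3 fell 1.59-fold (adjusted p = 0.000385). The ubiquitin ligase Birc3, which Traf2 brings to TNF receptors, read 512.3, 541.2 and 665.3 in the arrays labelled pMIG-TGIF1, against 257.6, 394.5 and 377.2 in the pMIG arrays, and rose 1.69-fold (adjusted p = 0.0065). Ripk3, the kinase of necroptosis, fell 1.34-fold (adjusted p = 0.0113), and lost the call without pMIG replicate 1 (adjusted p = 0.0522).

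Of 12 ubiquitin editors and brakes 1 rose and 1 fell (16.7% called, against 24.7% over all named probe sets), with a median of 0.03. Cyld, a deubiquitinase that limits NF-kB signalling, fell by 0.59 on the log2 scale (limma adjusted p = 0.00146), and Nfkbia, the NF-kB inhibitor that NF-kB itself induces, rose 1.37-fold (adjusted p = 0.0162, and 0.0711 without pMIG replicate 1). Of 5 NF-kB subunits Relb rose 1.24-fold and Nfkb2 and Rel each fell 1.25-fold. All 3 calls lay near the threshold (adjusted p = 0.0292 to adjusted p = 0.0379) and each was lost on leaving out single arrays (Relb, any of the 6, with adjusted p up to 0.144; Nfkb2, pMIG-TGIF1 replicate 2 or 3 or pMIG replicate 1 or 3, up to 0.138; Rel, pMIG-TGIF1 replicate 2 or pMIG replicate 2 or 3, up to 0.105). Among 5 proteases and regulators of ligand release, Rhbdf2, a partner of the TNF-shedding protease, rose 1.30-fold (adjusted p = 0.00889). That protease, Adam17, had a log2 fold change of 0.08 ± 0.10 (adjusted p = 0.641), or -0.03 with array median centring.

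TNF-inducible genes had the largest called share of these 5 lists, 85.0% against 24.7% over all named probe sets. Of the 20 genes 13 were called higher and 4 lower, beside 11.5% and 13.2% of all named probe sets. The median log2 fold change was 0.91, beside 0.01 over all named probe sets. This list too was chosen with earlier results of these data known. Il6, the cytokine, read 92.0, 132.2 and 146.4 in the arrays labelled pMIG-TGIF1, against 12.7, 13.3 and 13.9 in the pMIG arrays, a 9.11-fold rise (limma adjusted p = 5.41e-07). Ptgs2, the inducible cyclooxygenase, rose 12.67-fold, and the chemokine Ccl2 7.60-fold. Other genes that TNF is known to induce fell. Icam1, the leukocyte adhesion ligand, read 191.6, 176.4 and 167.1 in the arrays labelled pMIG-TGIF1, against 300.6, 298.3 and 307.5 in the pMIG arrays, and fell 1.70-fold. Sod2, the mitochondrial superoxide dismutase, fell 1.74-fold, Cxcl10 1.94-fold and Gadd45b 1.68-fold (adjusted p = 0.000154 to adjusted p = 0.00495 for these 4). These genes are also induced by other signals, and TNF signalling itself was not measured.

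**Figure D4:**
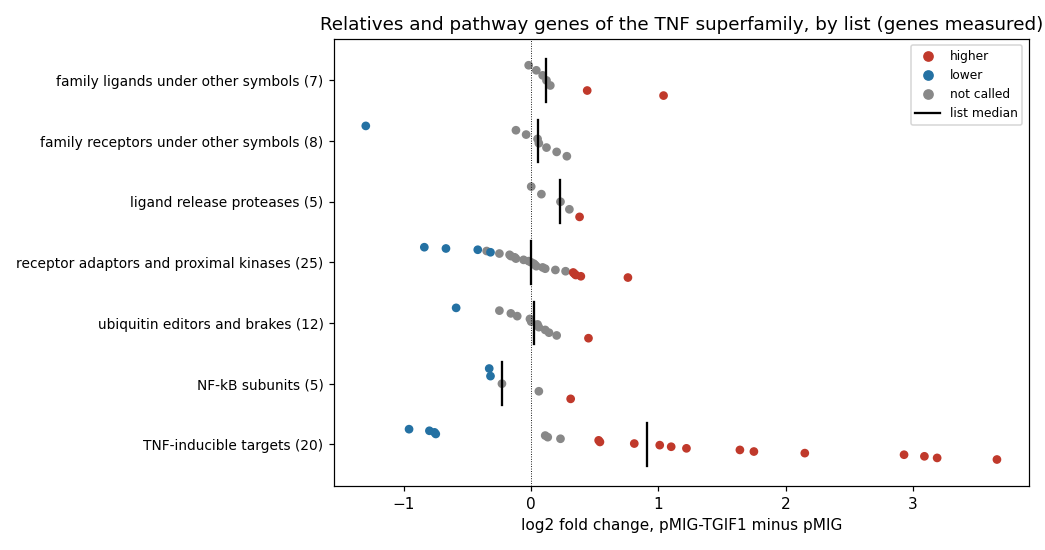
Log2 fold change (x axis, arrays labelled pMIG-TGIF1 minus pMIG arrays) of each measured gene, 1 point a gene, in the 2 lists of family members under other symbols and the 5 pathway lists, with the number measured in brackets and the list median as a black line. TNF-inducible targets spread from -0.96 to 3.66, while adaptors lie between -0.84 and 0.76.

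Several called members are best known from lymphocytes, and markers of lymphocytes and of other blood cells are given beside them. Of 8 T cell markers 3 rose, a called share of 37.5%, against 24.7% over all named probe sets (11.5% higher). These were Cd3d 1.63-fold, Cd3g 1.32-fold and Cd5 1.46-fold (limma adjusted p = 0.000623, 0.0176 and 0.00205). Cd3d and Cd3g were among the dimmest 30% of probe sets. Cd3e, Cd4, Cd8a, Lck and Trat1 did not pass, and Lck was 1.14-fold lower without overlap. The rise of Cd3g was lost without pMIG-TGIF1 replicate 3 (adjusted p = 0.0507) and without pMIG replicate 1 (0.0723) or 2 (0.0712). The summed intensity of the list ran from 318 to 352 in the arrays labelled pMIG-TGIF1, against 290 to 292 in the pMIG arrays. Of 7 B cell and 7 NK cell markers 0 passed in limma, and 0 had an unadjusted p under 0.05. Markers of other lineages also changed. Of 6 measured megakaryocyte markers 2 rose, the platelet chemokine genes Ppbp 31.36-fold and Pf4 18.16-fold (limma adjusted p = 4.70e-07 and adjusted p = 3.12e-07), and the list summed to 2677 to 4175 in the arrays labelled pMIG-TGIF1, against 277 to 369 in the pMIG arrays. Of 7 mast cell and basophil markers 1 fell, the IgE receptor subunit Ms4a2, at 4.02-fold (adjusted p = 1.54e-05), with sums of 340 to 353 in the arrays labelled pMIG-TGIF1, against 449 to 469 in the pMIG arrays. The myeloid list, with the falls of Cd33, Mpo and Kit and the rise of Ptprc given above, summed to 20178 to 22016 in the arrays labelled pMIG-TGIF1, against 21252 to 22354 in the pMIG arrays. Of 7 dendritic cell and 8 stroma and endothelium markers 0 passed in limma, with 1 and 2 at an unadjusted p under 0.05. Arrays give no true zero, and the part of any of these cells in the changes of the family was not tested. In such bulk samples fewer cells of a type and less RNA per cell cannot be told apart.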

How the data were processed

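Each of 6 samples had 1 Affymetrix Mouse Gene 1.0 ST array. The authors deposited probe set intensities on a linear scale, made with RMA in Partek per the submitters' processing notes, which give no versions or settings. RMA background-corrects, quantile-normalizes and median-polishes probes into sets. The 2 deposited tables held the same intensities, with a largest difference of 0. The authors' deposited table also gives p-values and a signed fold-change score whose test is not stated, and these were not used. The array's genome build is not given in the sources used here.

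After log2 transformation, limma 3.58.1 (R 4.3.3, lmFit and eBayes, no filter) was fitted over the 25123 probe sets with a symbol, as pMIG-TGIF1 minus pMIG over 6 arrays grouped by their titles. The 3730 others were left out. Calls are Benjamini-Hochberg adjusted p under 0.05 over all of them, SE and 95% intervals are those of the moderated fit, and rose and fell are used of calls. No scanner background call was used, and the number of arrays limits the precision. A gene on a list was represented by its probe set with the highest mean. The other probe set of Birc2 was not called (log2 0.00), unlike the one used. RefSeq accessions updated symbols, and RefSeq (GRCm38.p6) gave gene order and promoter windows. The fit was tested on simulated intensities.

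All members are accounted for, called ones in full, and from each list up to 4 genes with the smallest p were eligible to be named. Other genes were named after their values were seen. The members, lists and pairs were chosen with earlier results of these data known. Alternatives were the replicate number as a block, other moderation, normalization, filters and weights, the other table, and each array left out. Some genes may not be reported here.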

Additional observations from a re-analysis of the deposited data

How the results depend on the processing

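Without moderation, 3401 probe sets were called in place of 6200, with 1 ligand (higher), 2 receptors (both higher) and 18 pathway genes. Leaving out the dimmest 50% left 1 ligand called higher, 2 ligands called in all and 3 receptors called higher, since fewer members were tested. With array median centring the split of all calls went to 2179 higher and 4870 lower (30.9% higher, against 46.6%), 3 receptors were called lower, and the medians were 0.093 for ligands, -0.062 for receptors and -0.097 for all probe sets. The median of all was -0.017 with quantile normalization and -0.056 without the dimmest 50%. Receptors called lower numbered 2 with quantile normalization and with array weights.

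The replicate number as a block gave 5536 calls, with 0 ligands and 2 receptors called lower, Tnfrsf18 among them (adjusted p = 0.0395), and lost Tnfsf14 (0.0603) and Tnfrsf21 (0.0869). Deviations of same-numbered arrays correlated at -0.19, -0.11 and -0.05, so the numbers gave no sign of pairing.

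Leaving out 1 array at a time gave 4860 to 5911 calls over all, 2 to 4 ligands, 2 to 3 of them higher and 0 to 1 lower, 1 to 2 receptors lower, and a receptor median of 0.021 to 0.1. Over the members and named genes, 1100 single values kept their direction and their side of the threshold, 67 lost the call, 16 gained it and 27 changed sign.

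The sign changes all belonged to genes without a call. With array median centring Tnfrsf11b was -0.02, Tnfrsf26 -0.06, Tnfrsf1a -0.07, Tnfrsf25 -0.08, Tnfrsf12a -0.10, Tnfrsf10b -0.10 and Adam17 -0.03. With quantile normalization Tnfrsf25 was -0.08, Tnfrsf12a -0.03, Tnfrsf10b -0.02 and Tnfrsf22 0.02. On leaving out single arrays Tnfrsf26 ran from -0.04 to 0.14, Tnfrsf1a ran from -0.02 to 0.08, Tnfrsf25 ran from -0.08 to 0.14, Tnfrsf12a ran from -0.07 to 0.13, Tnfrsf10b ran from -0.06 to 0.06, Tnfrsf22 ran from -0.07 to 0.07, Tnfsf15 ran from -0.08 to 0.03 and Tnfrsf17 ran from -0.14 to 0.03. Except where an alternative tests fewer members or arrays, the cause was not tested. No array gave a depth or a background call, so the reading of dim members is limited.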
